A study of Mus musculus with 6 samples.

Results

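The VEGF system genes measured in embryonic mouse kidneys were 4 ligand genes (Vegfa, Vegfb, Vegfc and Pgf), 3 receptor tyrosine kinase genes (Flt1, Kdr and Flt4) and the 2 neuropilin coreceptor genes (Nrp1 and Nrp2). They were chosen by gene name, and all 9 were found among the 22394 genes of the deposited table. The mutant group was 3 libraries of whole kidneys at E13.5 with the genotype Foxd1Cre;Ptch1 (flox/-). The control group was 3 libraries from littermates of the same age with the genotype Ptch1 (flox/+). Both groups thus carried 1 floxed Ptch1 allele. The mutants also carried Cre under Foxd1, a gene of the renal stromal progenitors, and a Ptch1 null allele throughout the embryo. The effect of either cannot be told apart from that of losing Ptch1, the inhibitory Hedgehog receptor, in the Foxd1 lineage.

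VEGF proteins are secreted dimers that bind receptor tyrosine kinases on endothelial cells. KDR (VEGFR2) carries most of the mitogenic signal of VEGF-A, FLT1 (VEGFR1) binds VEGF-A, VEGF-B and PlGF tightly with weak kinase activity and also exists as a soluble decoy, and FLT4 (VEGFR3) binds VEGF-C and VEGF-D and marks lymphatic and sprouting endothelium. Neuropilins bind both VEGF ligands and class 3 semaphorins. In the developing kidney, nephron epithelium, podocytes above all, secretes VEGF-A and draws endothelial cells into the glomerulus.

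Flt1 and Kdr were about 2-fold higher in mutant than in control kidneys, and every mutant library lay above every control library for both, as it did for Nrp2. The ligand genes Vegfa, Vegfb, Vegfc and Pgf overlapped between the groups. Levels are given as FPKM, reads scaled to gene length and library depth, and fold changes as log2 of mutant over control. None of the 9 genes passed limma over all genes at a Benjamini-Hochberg adjusted p under 0.05, a threshold that 0.307% of the 16933 genes tested passed. At an unadjusted p under 0.05 there were 3 of the 9, all higher in mutants, beside 9.63% of all tested genes in either direction and 5.26% higher in mutants at that level. With library weights, limma called Flt1 (adjusted p = 0.00660) and Kdr (adjusted p = 0.0108), beside 1.64% of all genes called higher. All 3 mutants lay above all 3 controls for the same 3 genes, beside 7.57% of all tested genes. The median log2 fold change was 0.38 over the 9 genes and -0.01 over all tested genes.

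**Figure D1:**
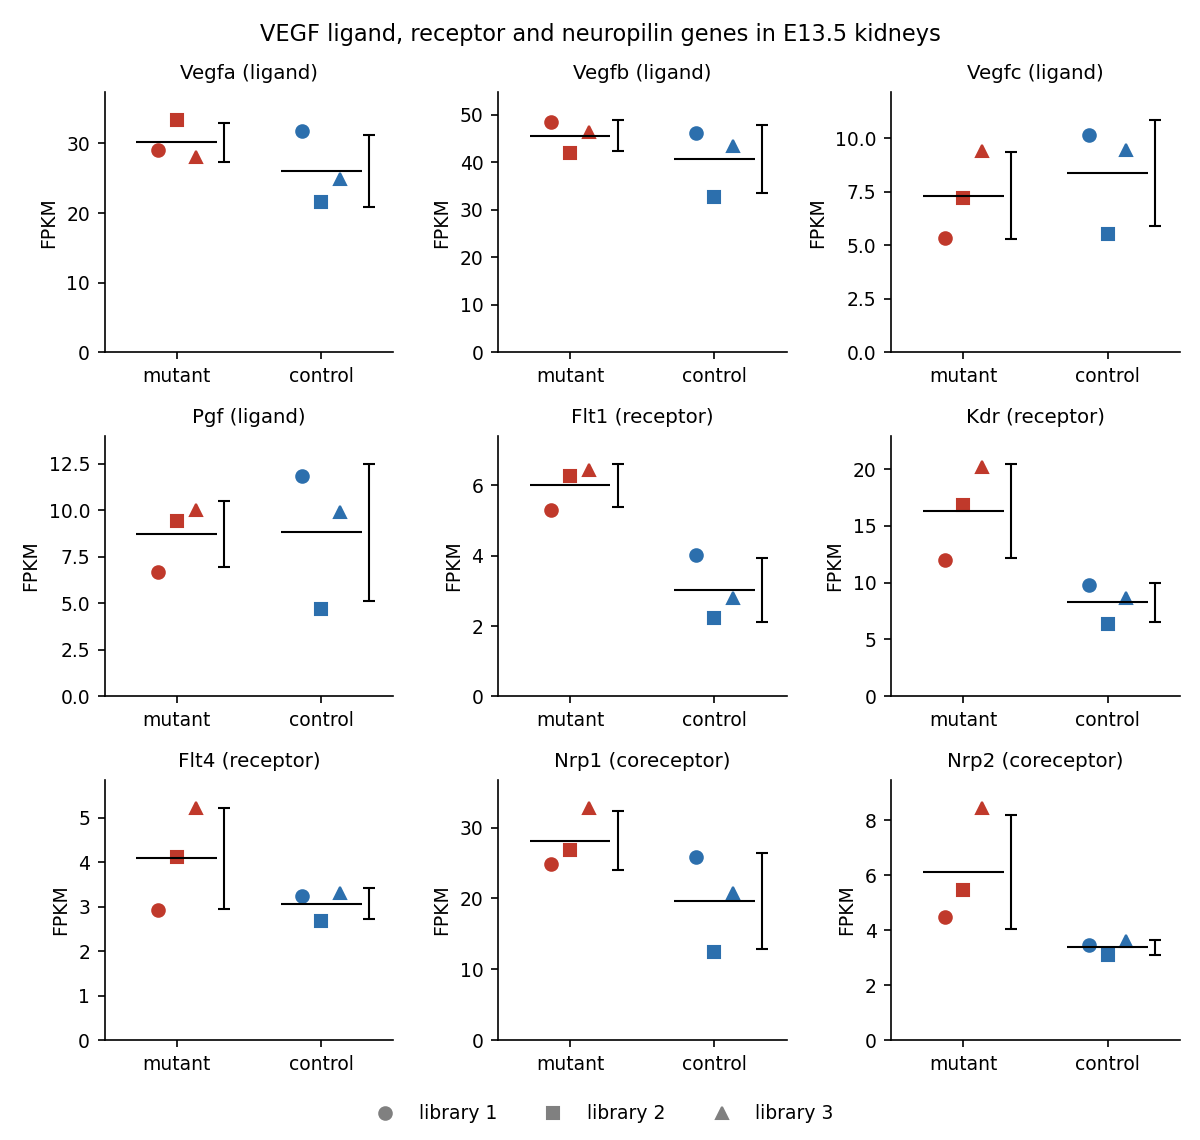
FPKM (vertical axes, from 0) of the 9 genes in each mutant and control library. Points are libraries, horizontal lines are group means and vertical bars are the SD (n = 3). Flt1, Kdr and Nrp2 have all mutants above all controls, while the other 6 genes overlap.

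Across the series, the table held 13261588 to 47847925 reads in mutants and 21644399 to 25416896 in controls. The lowest read number behind any value of the 9 genes was 237, for Vegfc in mutant 2. Kidney identity genes such as Six2, Pax2 and Ret were present in every library, at a summed 411 to 488 FPKM in mutants and 422 to 519 FPKM in controls for 10 genes. Ptch1 rose to 29.7 ± 6.17 FPKM in mutants, against 7.92 ± 0.331 FPKM in controls (SD, n = 3 each, limma adjusted p = 0.00443). Reads summed over all Ptch1 exons give no check of the deleted part. Control 2 stood apart on the first principal component, at 75.8 against -24.6 to 8.49 for the other libraries. The Y-linked gene Ddx3y was at 13.9 to 16.2 FPKM in the mutants and at 17.8 FPKM in control 2, against 0.0598 and 0.0177 FPKM in controls 1 and 3, so sex was not balanced between the groups. Mutant 3 also held Xist, the RNA of the inactive X chromosome, at 6.19 FPKM, against 0.103 and 0.206 FPKM in mutants 1 and 2. Xist was at 72.9, 0.0471 and 53.3 FPKM in controls 1 to 3, so mutant 3 had both transcripts.

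Among the receptors, Kdr (ENSMUSG00000062960.10, chromosome 5, 75932827 to 75978458, minus strand, GRCm38) had the highest level. Its FPKM was 11.98, 16.8 and 20.2 in mutants 1 to 3, against 9.78, 6.40 and 8.61 in controls 1 to 3. The lowest mutant was above the highest control. The log2 fold change was 0.97 (SE 0.22, unadjusted p = 0.00202, limma adjusted p = 0.165). Flt1 (ENSMUSG00000029648.13, chromosome 5, 147561604 to 147726011, minus strand, GRCm38) was at 5.31, 6.28 and 6.44 FPKM in mutants 1 to 3, against 4.02, 2.24 and 2.79 FPKM in controls 1 to 3. The mutants lay close together, and the controls spread more widely, with control 1 the highest of them. The log2 fold change was 1.03 (SE 0.21, unadjusted p = 0.00111, limma adjusted p = 0.125).

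Flt4 (ENSMUSG00000020357.3, chromosome 11, 49609263 to 49652739, plus strand, GRCm38), the receptor gene of lymphatic endothelium, was at 2.93, 4.11 and 5.21 FPKM in mutants 1 to 3, against 3.23, 2.67 and 3.30 FPKM in controls 1 to 3. Mutant 1 lay below controls 1 and 3, and mutant 3 was the highest library. The log2 fold change was 0.38 (SE 0.22, limma adjusted p = 0.583), and it was 0.18 without mutant 3 and 0.60 without mutant 1. The summed level of 5 listed lymphatic genes was 28.4 to 37.9 FPKM in mutants and 22.8 to 32.8 FPKM in controls. Most of that sum was Pdpn, a gene also expressed by podocytes, at 22.3 to 24.2 FPKM in mutants and 17.5 to 23.8 FPKM in controls. The members did not go one way, with log2 fold changes of -0.38 for Prox1, the transcription factor of lymphatic identity, -0.64 for Reln and 0.54 for Lyve1, none past limma. None of the 5 was at 0 in any library, and their part in the Flt4 values was not tested.

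The upstream sequences of Kdr and Flt1 are shown because these receptor genes had the highest log2 fold changes of the 9. Each is the 250 bases before the RefSeq start on GRCm38.p6, read 5′ to 3′ on the minus strand, at chr5:75978456-75978705 for Kdr and chr5:147726012-147726261 for Flt1. Capitals mark GGAA on either strand (TTCC on the strand shown), the core bound by ETS factors, a family active in endothelial genes.
Kdr: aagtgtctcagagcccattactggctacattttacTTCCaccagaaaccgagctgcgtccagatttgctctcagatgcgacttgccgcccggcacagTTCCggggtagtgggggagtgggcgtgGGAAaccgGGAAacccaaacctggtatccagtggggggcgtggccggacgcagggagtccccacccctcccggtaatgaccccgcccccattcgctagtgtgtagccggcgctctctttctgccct
Flt1: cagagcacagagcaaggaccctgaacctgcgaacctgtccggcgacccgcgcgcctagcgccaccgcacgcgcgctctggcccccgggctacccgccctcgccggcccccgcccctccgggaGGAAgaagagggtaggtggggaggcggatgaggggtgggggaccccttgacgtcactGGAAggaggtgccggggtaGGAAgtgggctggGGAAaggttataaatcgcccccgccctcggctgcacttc
Each window held 4 matches. The 4-letter core is common: 93.4% of all 32851 promoter windows of this length held it at least once on either strand. The share of all windows with 4 matches was not counted. The cyclic AMP response element TGACGTCA was in the Flt1 window and in 1.55% of all windows. The GLI motif GACCACCCA, the letters bound by the transcription factors of the Hedgehog pathway, was in none of the 11 windows listed for the 9 genes and in 0.225% of all windows, counting both strands. These matches are letters in a window, and say nothing of binding.

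Endothelial genes other than the VEGF receptors were examined in the same libraries. Of 19 listed endothelial markers, 5 rose in limma over all genes, beside 0.219% of all tested genes. At an unadjusted p under 0.05, 17 of the 19 were higher, beside 5.26% of all tested genes. All 19 fold changes were positive, as were 8308 of the 16933 genes tested, and the median of the 19 on the log2 scale was 0.87. The 5 called in limma were Emcn, Tie1, Esam, Icam2 and Cldn5. Emcn, a sialoglycoprotein of capillary and venous endothelium, was at 22.3, 21.7 and 25.8 FPKM in mutants 1 to 3, against 8.39, 10.3 and 9.47 FPKM in controls 1 to 3 (limma log2 fold change 1.31 ± 0.13 SE, adjusted p = 0.0105). Icam2, an endothelial adhesion molecule, was at 22.8, 24.9 and 23.6 FPKM in mutants, against 12.7, 11.4 and 12.6 FPKM in controls 1 to 3 (limma log2 fold change 0.96 ± 0.13 SE, adjusted p = 0.0297). The summed level of the 19 markers was 436 to 512 FPKM in mutants and 252 to 261 FPKM in controls. The number of the 19 called was 9 without control 2, 1 without control 1 or control 3, and 0 without any 1 of the 3 mutants. The same fits called 158 genes over the whole table without control 2, 15 without control 1 and 19 without control 3. They called 12, 9 and 13 genes without mutants 1 to 3 in turn, against 52 with all 6 libraries. Cdh5, the endothelial junction cadherin, was at 26.3, 33.9 and 52.1 FPKM in mutants, against 19.9, 10.02 and 20.1 FPKM in controls 1 to 3. Its limma adjusted p was 0.281, and that of the fenestral diaphragm gene Plvap was 0.105. The authors' deposited table called 13 of the 19 markers higher, beside 3.07% of the genes with an adjusted p there. Cdh5 (adjusted p = 5.58e-12) and Plvap (adjusted p = 1.53e-07) in that table were among the 13. In bulk RNA, fewer or more cells of a type and less or more RNA per cell cannot be told apart.

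Markers of other cells also differed between the groups. Of 6 listed skeletal muscle genes 5 were tested, and 4 of them (Acta1, Myh3, Myog and Mylpf) fell in limma over all genes. Of all tested genes, limma called 0.307% in either direction. The skeletal muscle genes summed to 7.1 to 9.5 FPKM in mutants and 27.0 to 47.8 FPKM in controls, with Acta1, a sarcomeric actin gene, at 0.126 to 0.310 FPKM in mutants and 5.13 to 14.3 FPKM in controls (log2 fold change -5.26, limma adjusted p = 0.00443). The number of muscle genes called was 2 without control 3 or without any 1 of the mutants, and 3 without control 1. The totals over all tested genes in the same fits are given above. Apart from these and the endothelial genes, no listed marker passed limma. All 10 macrophage genes had positive fold changes (median 0.67, 5 higher at an unadjusted p under 0.05). The median was 0.71 over 7 mural genes, with 4 higher at an unadjusted p under 0.05, and 0.78 over 8 tested neural genes, with 3. At that level 5.26% of all tested genes were higher. The authors' deposited table called the mural genes Cspg4, Pdgfrb and Tagln, the neural genes Dbh and Th and the kidney gene Gata3 higher, and Wt1, a nephron progenitor and podocyte gene, lower. It called 4.61% of the genes with an adjusted p there in either direction. The part of these cell types in the VEGF gene values was not tested.

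Kdr and Flt1 were also set against the endothelial markers within each library. Relative to the mean log2 normalized count of the 19 markers, Kdr was at 0.73, 1.20 and 1.25 in mutants 1 to 3, against 1.19, 0.60 and 0.99 in controls 1 to 3. The groups overlapped, with a difference of 0.14 on the log2 scale (exact two-sided permutation p = 0.5). Flt1 on the same scale was at -0.22, -0.00019 and -0.18 in mutants, against 0.13, -0.69 and -0.41 in controls 1 to 3 (difference 0.19, exact permutation p = 0.5). Relative to the same markers Flt4 was lower in every mutant, at -1.22, -0.75 and -0.63 in mutants 1 to 3, against -0.33, -0.58 and -0.31 in controls 1 to 3. Its difference of -0.46 gave an exact permutation p = 0.1, the smallest that 3 against 3 libraries allow. This separation depended on how the markers were averaged. Relative to the marker median Flt4 was at -1.32, -0.94 and -0.74 in mutants, against -0.38, -1.11 and -0.66 in controls 1 to 3, and the groups overlapped (difference -0.28, exact permutation p = 0.4). On the marker median the difference was 0.31 for Kdr (exact permutation p = 0.6) and 0.37 for Flt1 (exact permutation p = 0.4). Over the 6 within-library ratios tested, the Benjamini-Hochberg adjusted p was 0.6 for Kdr and Flt1 and 0.2 for Flt4.

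Within the receptor group, Kdr made up 59.3%, 61.8% and 63.4% of the summed receptor FPKM in mutants 1 to 3, against 57.4%, 56.6% and 58.6% in controls 1 to 3. Flt4 made up 14.5%, 15.1% and 16.4% in mutants, against 18.97%, 23.6% and 22.4% in controls 1 to 3. The Flt4 share was therefore lower in each mutant than in any control. The ratio of the decoy receptor gene Flt1 to the signalling receptor gene Kdr was 0.443, 0.373 and 0.319 in mutants, against 0.411, 0.350 and 0.324 in controls 1 to 3. The ranges overlapped (difference 0.06 on the log2 scale, exact permutation p = 0.8).

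Among the ligands, Vegfa (ENSMUSG00000023951.17, chromosome 17, 46016993 to 46032369, minus strand, GRCm38) was at 29.1, 33.4 and 28.1 FPKM in mutants 1 to 3, against 31.7, 21.6 and 24.9 FPKM in controls 1 to 3. Control 1 lay above mutants 1 and 3. The log2 fold change was 0.22 with a 95% interval of -0.14 to 0.59 (limma adjusted p = 0.628), and it was 0.10 without control 2 and 0.37 without control 1. The summed level of 6 listed podocyte genes was 21.7 to 28.7 FPKM in mutants and 14.3 to 39.0 FPKM in controls. The highest podocyte sum was in control 2, the library with the lowest Vegfa, and the part of podocytes in the Vegfa values was not tested. None of the 6 was at 0 in any library.

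Vegfb (ENSMUSG00000024962.13, chromosome 19, 6982473 to 6987651, minus strand, GRCm38), whose product binds FLT1 and not KDR, was the highest of the 9 genes per length. It was at 48.5, 42.0 and 46.4 FPKM in mutants 1 to 3, against 46.1, 32.7 and 43.5 FPKM in controls 1 to 3, and mutant 2 lay below controls 1 and 3 (limma log2 fold change 0.18 ± 0.15 SE, adjusted p = 0.673). Without control 2 the Vegfb log2 fold change was 0.02, and without control 1 it was 0.27. Pgf (ENSMUSG00000004791.7, chromosome 12, 85166635 to 85177790, minus strand, GRCm38), which encodes the FLT1 ligand PlGF, was at 6.70, 9.45 and 10.01 FPKM in mutants, against 11.8, 4.72 and 9.94 FPKM in controls 1 to 3. Its controls spread over a wider range than its mutants and enclosed them, with a log2 fold change of 0.06 and a 95% interval of -0.69 to 0.82 (limma adjusted p = 0.951). Vegfc (ENSMUSG00000031520.6, chromosome 8, 54077606 to 54187096, plus strand, GRCm38), the lymphangiogenic ligand gene of FLT4, was at 5.34, 7.23 and 9.41 FPKM in mutants, against 10.2, 5.55 and 9.44 FPKM in controls 1 to 3. It was the 1 gene of the 9 with a negative log2 fold change, at -0.18 with a 95% interval of -0.82 to 0.45 (limma adjusted p = 0.810).

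The balance of ligand and receptor genes was compared within libraries. Vegfa over Kdr in FPKM was 2.43, 1.98 and 1.39 in mutants 1 to 3, against 3.24, 3.38 and 2.89 in controls 1 to 3. Every mutant ratio was below every control ratio, a difference of -0.75 on the log2 scale (exact permutation p = 0.1, the smallest possible, and 0.2 adjusted over the 6 ratios). Vegfa relative to the endothelial markers was lower in every mutant, at 1.23, 1.41 and 0.94 in mutants, against 2.11, 1.58 and 1.74 in controls 1 to 3 (difference -0.61, exact permutation p = 0.1, 0.2 adjusted). The 2 ratios are not separate results, since both use the Vegfa values. Vegfa itself overlapped between the groups. Kdr and 16 of the 19 markers had every mutant above every control, beside 7.57% of all tested genes. How many other genes separate when set against Kdr or the markers was not counted. Relative to the marker median the groups overlapped for Vegfa, at 1.13, 1.22 and 0.83 in mutants, against 2.05, 1.04 and 1.40 in controls 1 to 3 (difference -0.44, exact permutation p = 0.3). The sum of the 4 ligand genes over the sum of the 3 receptor genes, taken as a description after the values were seen, was 4.43, 3.38 and 2.95 in mutants and 5.86, 5.71 and 5.97 in controls 1 to 3. The make-up of the ligand sum itself overlapped, with Vegfb at 45.6% to 54.1% in mutants and 46.2% to 50.6% in controls.

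**Figure D2:**
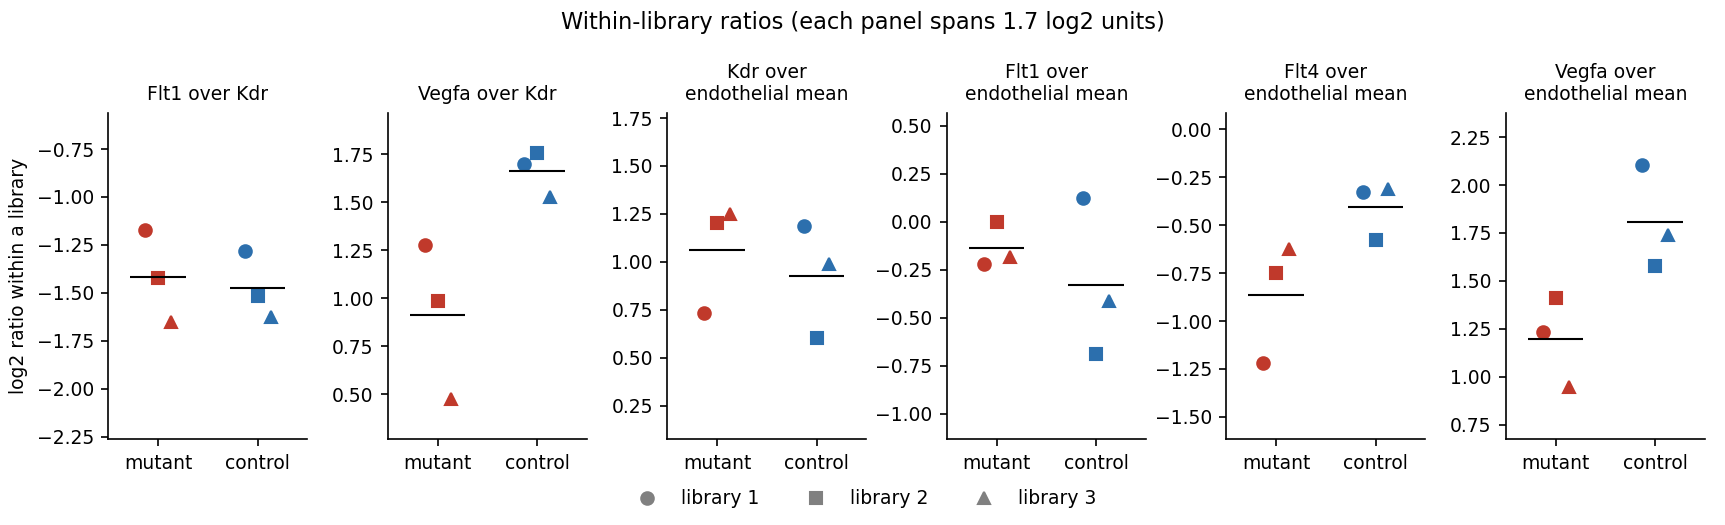
Log2 ratios within each library (vertical axes, each panel spanning the same range) for mutants and controls. Points are libraries and lines are group means. Vegfa over Kdr, Flt4 over the endothelial mean and Vegfa over the endothelial mean have every mutant below every control, while the other 3 ratios overlap. With the marker median in place of the mean, Flt4 and Vegfa overlap between the groups too.

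The neuropilin genes encode coreceptors with a short cytoplasmic tail and no kinase. Nrp2 (ENSMUSG00000025969.15, chromosome 1, 62703285 to 62818695, plus strand, GRCm38), a coreceptor for VEGF-C and for class 3 semaphorins, was at 4.48, 5.45 and 8.47 FPKM in mutants 1 to 3, against 3.45, 3.09 and 3.63 FPKM in controls 1 to 3. The controls lay within a narrow range and all mutants were above it (log2 fold change 0.81, SE 0.22, unadjusted p = 0.00635, limma adjusted p = 0.304). The annotation places an antisense gene, Gm29083, within Nrp2, and without strand information its reads could not be told apart from those of Nrp2. A further annotated gene, Gm37121, lies in Nrp2 on the same strand.

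Nrp1 (ENSMUSG00000025810.9, chromosome 8, 128358604 to 128503363, plus strand, GRCm38), the coreceptor of KDR for VEGF-A, was at 24.8, 26.9 and 32.8 FPKM in mutants 1 to 3, against 25.9, 12.4 and 20.7 FPKM in controls 1 to 3. Control 1 lay above mutant 1, and control 2 was far below the rest. The log2 fold change was 0.57 with a 95% interval of -0.00 to 1.15 (unadjusted p = 0.0508, limma adjusted p = 0.519). It was 0.27 without control 2 and 0.80 without control 1. Markers of other cells that can express neuropilins were measured in the same libraries. The summed level of 7 mural genes was 86.5 to 133 FPKM in mutants and 57.8 to 86.0 FPKM in controls, and that of 9 neural genes was 8.90 to 22.5 FPKM in mutants and 7.15 to 11.9 FPKM in controls, highest in mutant 3. The 10 macrophage genes summed to 20.5 to 35.1 FPKM in mutants and 14.2 to 19.2 FPKM in controls. None of these genes was at 0 in any library, and their part in the neuropilin values was not tested.

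In mutants the order of levels per length, from high to low, was Vegfb, Vegfa, Nrp1, Kdr, Pgf, Vegfc, Nrp2, Flt1 and Flt4. In controls it was Vegfb, Vegfa, Nrp1, Pgf, Vegfc, Kdr, Nrp2, Flt4 and Flt1. In mutants the ranges of Vegfa and Nrp1 overlapped, and so did those of neighbours from Pgf to Flt1. In controls Vegfa overlapped Nrp1, Pgf overlapped Vegfc, Vegfc overlapped Kdr, and Nrp2, Flt4 and Flt1 overlapped in turn. Kdr thus had a range above those of Pgf and Vegfc in mutants, and one that overlapped them in controls. The order depends on the gene lengths used by the authors. The length implied by the deposited values was 0.375 of the GENCODE M21 exon union for Nrp1 and 0.514 for Flt1, against 0.811 for Vegfa. On the exon union, an alternative chosen after seeing the data, Kdr passed Nrp1 in mutants, at 10.8 ± 2.73 FPKM for Kdr and 10.6 ± 1.56 FPKM for Nrp1 (SD, n = 3 each), with overlapping ranges. On that length the mutant range of Kdr, 7.91 to 13.3 FPKM, was still above that of Pgf but overlapped that of Vegfc, 5.37 to 9.47 FPKM. Fold changes between the groups do not depend on the length.

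The order of libraries was similar for most of the 9 genes. Control 2 was the lowest control for all 9 genes, and it was the lowest control for 39.4% of all tested genes. Control 1 was the highest control for 7 of the 9 genes, beside 34.5% of all tested genes, and the exceptions were Flt4 and Nrp2. Among mutants, mutant 3 was the highest for 7 of the 9, beside 32.8% of all tested genes, with Vegfa and Vegfb as the exceptions. Mutant 3 is the library with both Ddx3y and Xist, and the log2 fold changes without it were 0.98 for Flt1, 0.80 for Kdr and 0.55 for Nrp2. The number of genes with all mutants above all controls was 5 without control 1, when Vegfa and Nrp1 joined Flt1, Kdr and Nrp2. It was also 5 without mutant 1, when Flt4 and Nrp1 joined them. It was 4 without mutant 2 and 3 without any 1 of the remaining libraries. Fewer libraries separate more easily, and the share of all tested genes was counted only with all 6 libraries (7.57%). The change from 3 to 5 is thus not a result about the 9 genes.

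The authors' deposited table gave a higher log2 fold change than limma on all 6 libraries for each of the 9 genes, and called 4 of them higher at an adjusted p under 0.05, beside 3.07% of the 15881 genes with an adjusted p. In the authors' deposited table the log2 fold change was 1.30 for Flt1 (adjusted p = 3.59e-07), 1.20 for Kdr (adjusted p = 1.58e-06), 0.91 for Nrp2 (adjusted p = 0.00340) and 0.88 for Nrp1 (adjusted p = 0.000272). The authors' deposited table gave Pgf a log2 fold change of 0.43, against 0.06 in limma, and Vegfc 0.09, against -0.18 in limma.

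**Figure D3:**
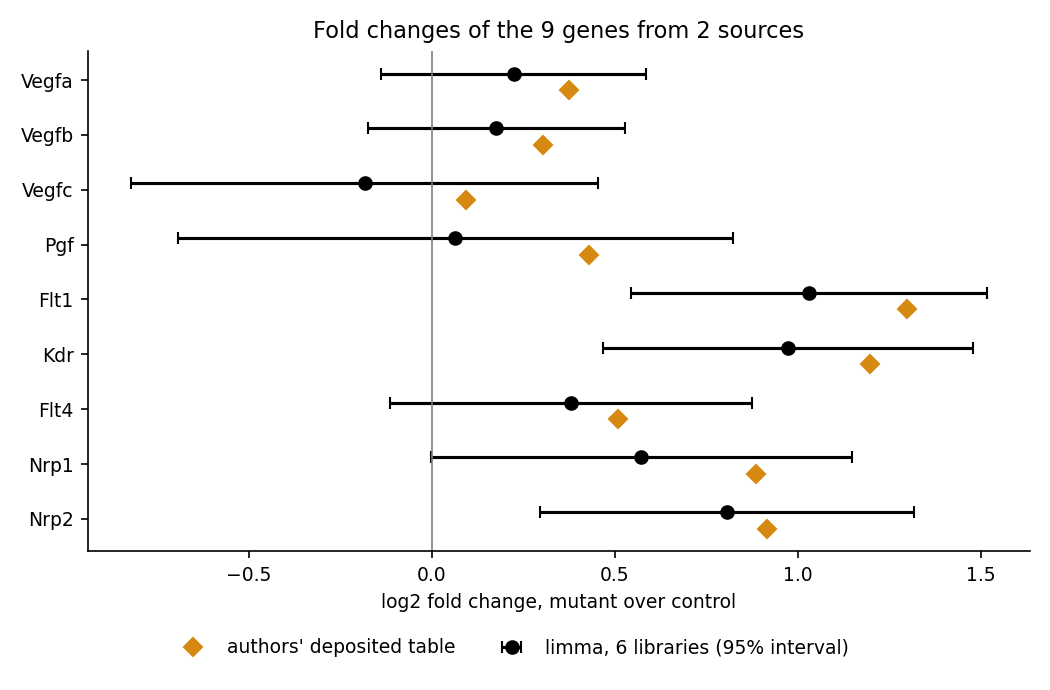
Log2 fold change, mutant over control (horizontal axis), of the 9 genes from limma on 6 libraries with its 95% interval and from the authors' deposited table. The deposited value lies to the right of the limma value for every gene, by 0.11 (Nrp2) to 0.36 (Pgf).

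The libraries that enter the authors' fold change were read from the values. Over 2898 genes with a mean normalized signal above 2000, a least-squares fit of the fold change in the authors' deposited table on the 6 log2 FPKM columns left a residual SD of 0.0161. Equal weights on the 3 mutants and the 3 controls left 0.158. The fitted weights were 0.27, 0.28 and 0.45 for mutants 1 to 3, and 0.02, -0.55 and -0.47 for controls 1 to 3. Control 1, the highest control for 7 of the 9 VEGF genes, thus had almost no weight in the authors' deposited table. The sources used here do not give the model behind these weights. When control 1 was left out of limma, the log2 fold changes were 1.26 for Flt1, 1.10 for Kdr, 0.80 for Nrp1, 0.82 for Nrp2 and 0.33 for Pgf, none of them called (adjusted p = 0.0603 to 0.63). For Nrp1, which the authors' deposited table called, control 1 is also the library that overlaps the mutants.

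**Figure D4:**
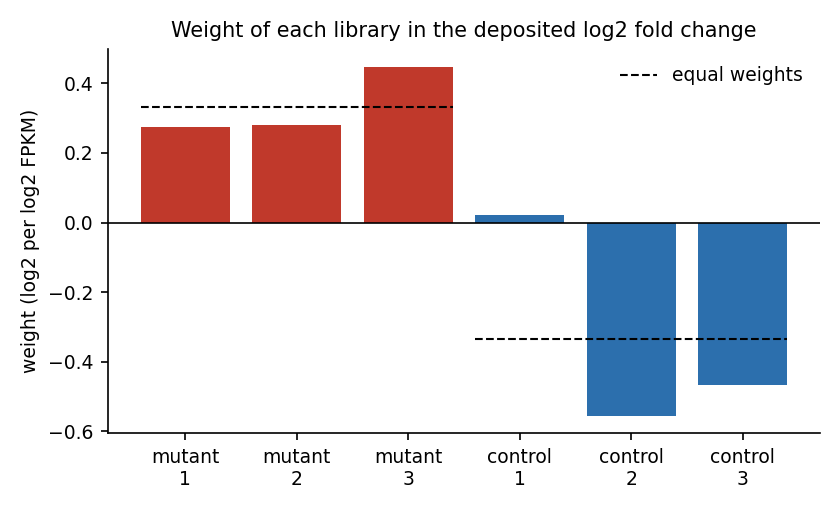
Weight of each library's log2 FPKM (vertical axis, from a least-squares fit over 2898 genes) in the log2 fold change of the authors' deposited table. Bars are libraries and dashed lines mark equal weights. Control 1 has a weight of 0.02, while controls 2 and 3 have -0.55 and -0.47.

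Genes that endothelial cells express in response to VEGF were examined as a list of 11. None passed limma over all genes, and the list median was 0.25. At an unadjusted p under 0.05 there were 3, all higher in mutants, beside 5.26% of all tested genes higher at that level. Angpt2, an antagonist of the receptor TEK made by sprouting endothelium, was at 4.80, 8.17 and 9.90 FPKM in mutants 1 to 3, against 2.17, 1.84 and 2.85 FPKM in controls 1 to 3 (limma log2 fold change 1.69 ± 0.28 SE, adjusted p = 0.0659). Aplnr, the apelin receptor of venous and sprouting endothelium, was at 22.2, 28.4 and 35.1 FPKM in mutants, against 13.7, 13.3 and 10.8 FPKM in controls 1 to 3 (limma log2 fold change 1.16 ± 0.18 SE, adjusted p = 0.051). The Notch ligand gene Dll4 was at 4.85, 4.61 and 4.83 FPKM in mutants, against 3.17, 2.17 and 2.53 FPKM in controls 1 to 3 (limma log2 fold change 0.88 ± 0.18 SE, adjusted p = 0.119). Without control 2, 2 of the 11 passed, in a fit that called 158 of all tested genes. The authors' deposited table called Angpt2 (adjusted p = 5.76e-08), Aplnr (adjusted p = 5.79e-06) and Dll4 (adjusted p = 0.00274) higher, beside 3.07% of the genes with an adjusted p there. Bulk RNA does not show which cells these 3 genes came from. The summed endothelial and mural markers are given in other paragraphs, and the part of endothelial or other cells in the values of the 3 genes was not tested.

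Of 31 listed genes of receptor signalling, 30 were tested and none passed limma over all genes, with a median of -0.06. At an unadjusted p under 0.05, 5 were higher and 1 was lower. Of all tested genes, 5.26% were higher and 9.63% differed in either direction at that level. Ptprb, the endothelial phosphatase VE-PTP, was at 1.24, 1.24 and 1.66 FPKM in mutants 1 to 3, against 0.562, 0.814 and 0.554 FPKM in controls 1 to 3 (log2 fold change 1.11, limma adjusted p = 0.106). The adaptor gene Gab1 had a log2 fold change of 0.69 (limma adjusted p = 0.223) and the kinase gene Prkca a value of -0.80 (limma adjusted p = 0.0936), and neither overlapped between the groups. The authors' deposited table called these 3 genes, beside 4.61% of the genes with an adjusted p there in either direction. The untested gene Sh2d2a was at 0 in some libraries.

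Genes that control ligand production or availability were also a list with no gene past limma, with a median of 0.03. At an unadjusted p under 0.05 there was 1 of the 13, beside 9.63% of all tested genes in either direction. That gene was Thbs1, an inhibitor of angiogenesis that can bind VEGF-A, at 17.0, 19.1 and 22.8 FPKM in mutants 1 to 3, against 14.4, 5.65 and 12.1 FPKM in controls 1 to 3 (log2 fold change 0.97, limma adjusted p = 0.4). The remaining VEGF ligand gene Vegfd, on the X chromosome, was at 14.1, 13.8 and 21.0 FPKM in mutants, against 13.1, 7.11 and 14.7 FPKM in controls 1 to 3, with overlapping groups (log2 fold change 0.53, limma adjusted p = 0.568). The hypoxia factor gene Hif1a was at 16.8, 23.6 and 21.0 FPKM in mutants, against 19.6, 38.5 and 28.3 FPKM in controls 1 to 3 (log2 fold change -0.45, limma adjusted p = 0.564). Its highest level was in control 2, the control with the lowest Vegfa. Control 2 was also the lowest control for all 9 VEGF genes and for 39.4% of all tested genes. Any link between Hif1a and Vegfa was not tested. Among 10 genes that, like Vegfa, are induced by hypoxia-inducible factors, none passed limma and none had an unadjusted p under 0.05 (median 0.18). The authors' deposited table called Vegfd, Thbs1 and Thbs2 higher and Hif1a lower, and among the hypoxia-induced genes Slc2a1 higher and Pgk1 and Ldha lower. It called 4.61% of the genes with an adjusted p there in either direction.

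Of the 12 semaphorin ligands and plexin receptors that work with neuropilins, none passed limma (median -0.02). At an unadjusted p under 0.05, 3 were higher and 1 was lower. Of all tested genes, 5.26% were higher and 9.63% differed in either direction at that level. Plxna2, a signal-transducing partner of neuropilins, was at 3.60, 5.15 and 5.02 FPKM in mutants 1 to 3, against 2.33, 1.60 and 2.31 FPKM in controls 1 to 3 (log2 fold change 1.14, limma adjusted p = 0.0797). Sema3a, a repellent ligand of NRP1, was at 3.21, 2.86 and 4.70 FPKM in mutants, against 6.98, 5.90 and 8.46 FPKM in controls 1 to 3 (limma adjusted p = 0.136). Of the 12, 2 had every mutant above every control, Plxna2 among them, and 1, Sema3a, had every mutant below. Groups did not overlap for 16.7% of all tested genes in either direction. The authors' deposited table called Plxna2 and Plxna4 higher and Sema3a lower, beside 4.61% of the genes with an adjusted p there in either direction.

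**Figure D5:**
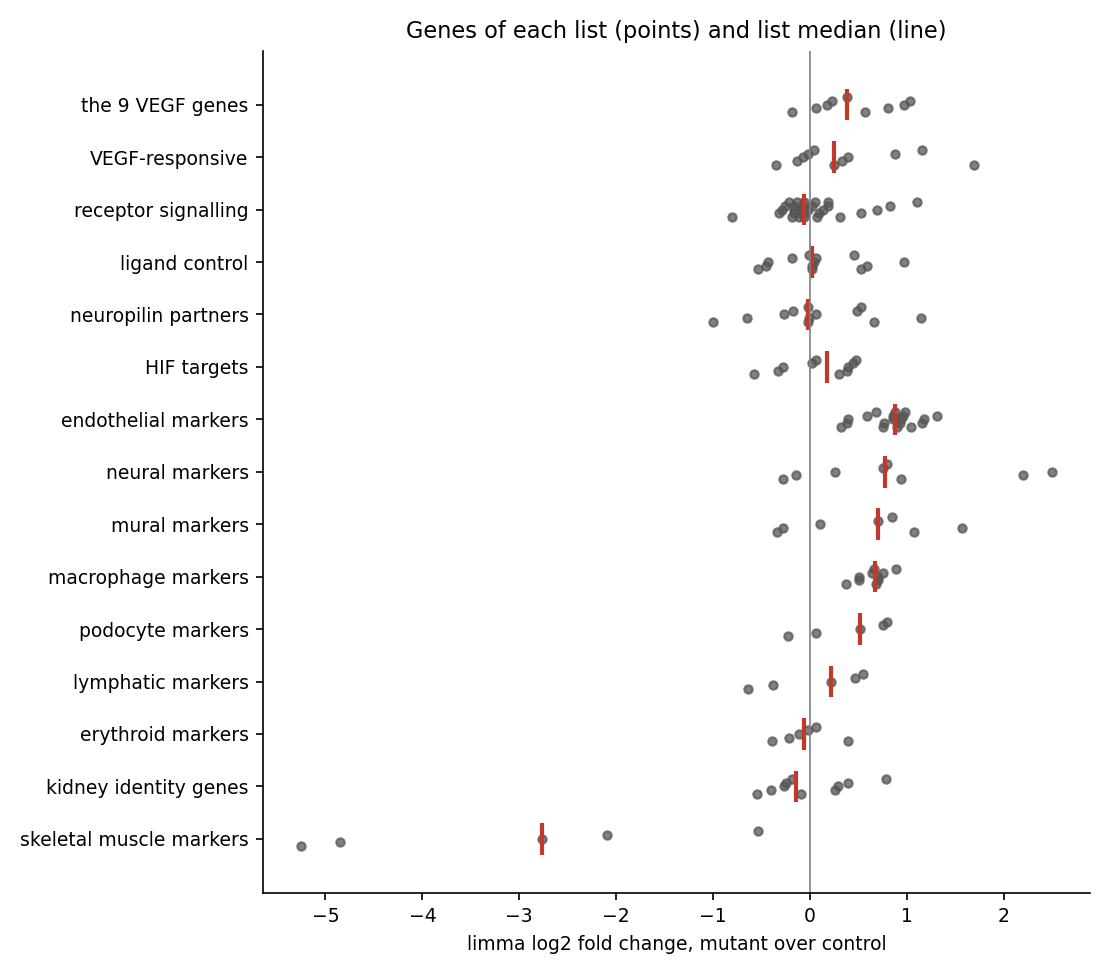
Limma log2 fold change, mutant over control (horizontal axis), of each tested gene (points) in 15 lists, with the list median (line). The median is 0.38 for the 9 VEGF genes and lies between -0.06 and 0.25 for the other 5 pathway lists. Of the marker lists, the endothelial (0.87), neural (0.78), mural (0.71), macrophage (0.67) and podocyte (0.52) medians are above that of the VEGF genes, and skeletal muscle is at -2.76.

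The genes whose profile over the 6 libraries was most like that of Kdr were Mmrn2, Nhs, Elk3, Fam46a and Robo4, with Pearson r of 0.986 to 0.993 on log2 values, among 12169 genes ranked. Mmrn2 and Robo4 are endothelial genes on the marker list and Elk3 is an ETS family factor. For Flt1 the closest were Gdpd5, Hyi, Adam15, Prr5 and the endothelial and mural adhesion gene Mcam, with r of 0.989 to 0.992. For Vegfa they were Zdhhc6, Ttc14, Pla2g6, Kcnmb4os2 and Ppp1r12c, with r of 0.991 to 0.999. With 6 points, high values are common: 204 genes had an r above 0.9 with Kdr, 233 with Flt1 and 210 with Vegfa.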

How the data were processed

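RNA of whole E13.5 kidneys was sequenced from 3 mutants and 3 controls. The submitters' processing notes name build mm10 and, in no order, DESeq2, HTSeq 0.6.1p2, STAR 2.6.0c and Trim Galore. A strand setting was not given in the sources used here. The deposited library columns were taken as FPKM from their values, since no header names the unit. Per the file headers, the authors also deposited a mean normalized signal, a log2 fold change with its standard error, a Wald score, a p-value and an adjusted p-value for each gene.

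FPKM times a gene's mean normalized signal over its mean FPKM gave normalized counts. All 134364 values (100%) were whole multiples of 1 step per library, within 1e-06 of a read, which gave each library's depth. R 4.3.3 and limma 3.58.1 fitted the 2 groups, with no covariate and with an intensity trend, to log2(normalized count + 1), over the 16933 genes with at least 10 in 3 or more libraries. All 9 VEGF genes entered. Fold changes on this scale understate low genes. P-values were adjusted over all genes tested and called under 0.05. They measure the spread between the libraries sequenced. Ratios within libraries used exact permutation tests in SciPy 1.17.1. The recovered reads were also fitted with limma voom.

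Named genes were the 9 genes, Ptch1, list members called in limma, up to 4 per list with the smallest p in the authors' deposited table among those it called, and the 5 genes most like Kdr, Flt1 and Vegfa averaging at least 50 normalized counts, with predicted, pseudogene and sex-linked genes left out. Defining markers (Six2, Pax2, Ret, Prox1, Lyve1, Pdpn, Reln) were named as the rule allows. Ddx3y, Xist, Sh2d2a and the genes overlapping Nrp2 were named outside it, after their values were seen. Some genes the rule would name are not reported here. The members and lists were chosen with earlier results of these data known. The limma fit was tested on simulated data first. Positions are from GENCODE M21 (GRCm38, the assembly of mm10), which held 99.8% of the gene identifiers, and promoter windows are from RefSeq on GRCm38.p6. Alternatives changed the pseudocount, filter, scaling, value, trend, library weights, tool, block and libraries.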

Additional observations from a re-analysis of the deposited data

How the results depend on the processing

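Of 153 alternative values of the 9 log2 fold changes, 146 kept their direction and their side of the threshold. With library weights, the lowest of which was control 2 (0.333), Flt1 (1.09) and Kdr (1.04) passed it, and Pgf was at -0.039. Leaving out 1 library at a time gave ranges of 0.099 to 0.37 for Vegfa, 0.024 to 0.27 for Vegfb, 0.84 to 1.26 for Flt1, 0.80 to 1.18 for Kdr, 0.55 to 1.01 for Nrp2, -0.46 to 0.025 for Vegfc and -0.33 to 0.33 for Pgf, so the direction of Vegfc and Pgf depended on the libraries. Of 46 alternative values of the ratios, 43 kept their direction. The other 3 came from leaving out 1 library, which gave -0.063 to 0.18 for Flt1 over Kdr and -0.027 to 0.30 for Kdr relative to the endothelial markers. The difference for Vegfa over Kdr stayed at -0.93 to -0.53. With the median in place of the mean of the endothelial markers, the differences were 0.31 for Kdr, 0.37 for Flt1, -0.28 for Flt4 and -0.44 for Vegfa (exact permutation p = 0.6, 0.4, 0.4 and 0.3), and the separation of Flt4 and Vegfa was lost.

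The number of genes called over the whole table was 52. It was 50 with voom on the recovered reads, 32 without the intensity trend, 380 with library weights and 9 to 158 when 1 library was left out (158 without control 2). The cause of these differences was not tested. A paired fit with the number as a replicate block called 17 genes and none of the 9 (Flt1 adjusted p = 0.211). Libraries with the same number in both groups had deviations correlated at 0.00081, -0.098 and 0.309, so the numbers were not taken as pairs, and only mutant 3 correlated best with its own number. Levels on the exon union length ranged from 0.375 (Nrp1) to 1.01 (Vegfc) of the deposited ones. Every value of the 9 genes had 237 or more reads behind it. With 3 libraries a group, the exact tests could not go below 0.1.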
